A study of Mus musculus with 30 samples.

Results

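The genes described here encode the sliding clamp of DNA replication, the machine that loads it and the enzymes that finish the lagging strand. They were chosen by name: Pcna, Rfc1, Rfc2, Rfc3, Rfc4, Rfc5, Fen1, Lig1, Dna2 and Wdhd1, 10 of the 20558 protein-coding genes placed on chromosomes 1 to 19. Their positions were set beside the 2844 replication initiation zones listed for 1 wild-type OK-seq library of E14TG2a, an established line of mouse embryonic stem cells kept in the 2i/LIF medium that holds them in the ground state. The cells were labelled with 10 µM EdU, a thymidine analogue, for 2 min. The series holds 30 samples in 18 groups and also profiled modified histones on sister chromatids in wild-type cells and in clones of the MCM2_2A histone-binding mutant. Of these samples 29 were not analysed here. Every zone and breakpoint below comes from wild-type cells, while gene positions and sequences come from the reference genome. The 1 library gives no replicate error.

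PCNA is a ring that slides along DNA and holds polymerases and other enzymes at the fork. The pentameric loader RFC, built from the products of Rfc1 to Rfc5, opens the ring and closes it around each primed end, which on the lagging strand happens again at every Okazaki fragment. FEN1 and DNA2 trim the displaced primer flap, LIG1 seals the nick, and WDHD1 (AND-1) ties the priming polymerase to the helicase. OK-seq sequences Okazaki fragments by strand. Where the bias between strands turns from leftward to rightward forks lies an initiation zone, recorded in the list as a breakpoint bin of 1 kb with a left and a right arm that end at the zone's edges. These genes encode proteins that act in making or joining the fragments the assay reads, but their expression was not measured here.

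The DNA in front of 6 of these genes is shown first. For Pcna, Rfc5 and Wdhd1 it is cut short by a neighbouring gene. Each stretch is the RefSeq sequence (GRCm38.p6, the same build as mm10) immediately upstream of the gene, 5′ to 3′ on the gene's own strand, stopped at 250 bases from the listed start or at the next annotated gene. Capitals mark the letters of motifs searched on both strands. The GC box, bound by Sp1, was taken as GGGCGG, and the box bound by NF-Y as its letters CCAAT. The core of the cyclic AMP response element was taken as TGACG. For E2F, the cell cycle factor, the forms TTTCCCGC, TTTCGCGC, TTTGCCGC and TTTGGCGC were searched. Matches may overlap each other. A listed start was found for 9 of the 10 genes, not for Rfc2. Before Rfc1, Fen1 and Lig1 the limits above left too few bases to show.
Pcna, chr2:132253181-132253337, - strand: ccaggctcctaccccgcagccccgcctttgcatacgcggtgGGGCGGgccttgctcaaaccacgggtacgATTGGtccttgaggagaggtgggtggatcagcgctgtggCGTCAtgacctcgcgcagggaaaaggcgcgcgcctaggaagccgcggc
Rfc3, chr5:151651209-151651458, - strand: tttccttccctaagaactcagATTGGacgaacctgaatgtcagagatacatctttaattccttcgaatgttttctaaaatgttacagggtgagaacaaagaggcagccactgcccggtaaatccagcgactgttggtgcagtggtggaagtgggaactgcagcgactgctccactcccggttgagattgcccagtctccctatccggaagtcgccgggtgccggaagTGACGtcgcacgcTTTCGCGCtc
Rfc4, chr16:23127731-23127980, - strand: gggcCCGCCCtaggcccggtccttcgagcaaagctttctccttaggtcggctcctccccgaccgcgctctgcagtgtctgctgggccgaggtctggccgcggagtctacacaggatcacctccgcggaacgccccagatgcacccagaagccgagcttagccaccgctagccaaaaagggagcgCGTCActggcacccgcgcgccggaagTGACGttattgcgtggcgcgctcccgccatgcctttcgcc
Rfc5, chr5:117389024-117389121, - strand: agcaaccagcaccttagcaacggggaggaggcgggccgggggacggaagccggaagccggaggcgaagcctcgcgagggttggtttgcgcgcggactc
Dna2, chr10:62946779-62946982, + strand: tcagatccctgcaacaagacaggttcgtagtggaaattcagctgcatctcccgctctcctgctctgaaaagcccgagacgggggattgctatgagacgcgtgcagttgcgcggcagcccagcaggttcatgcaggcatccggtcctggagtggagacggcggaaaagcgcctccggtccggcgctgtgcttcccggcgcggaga
Wdhd1, chr14:47276862-47276919, - strand: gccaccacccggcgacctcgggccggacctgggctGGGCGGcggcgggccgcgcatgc

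The Pcna stretch is the whole of the 157 bases between Pcna and Cds2, and the Wdhd1 stretch the 58 bases between Wdhd1 and Socs4. The Rfc5 stretch, 98 bases, ends at the noncoding gene Gm15728. In the windows of 250 bases before all 12 listed starts of the 9 genes, the TGACG letters occurred in 6, against 20.5% of 20085 such windows of protein-coding genes. A GC box occurred in 5 (43.4% of all windows) and a CCAAT box in 3 (35.3%). The E2F letters occurred in 1, before Rfc3, against 2.34% of all windows. GC content had a median of 64.4% over the 12 windows and 56% over all, and the ratio of observed to expected CpG was 0.855 against 0.547. The highest GC content was that of Wdhd1 (74.8%), which lies outside zones, and the lowest that of the outer start of Fen1 (40.8%), which lies in one and whose inner start had 53.6%. Over all protein-coding genes the median was 59.2% for windows of genes in zones and 54% for those outside. A match describes the letters only.

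Most of these genes lay in initiation zones. An end of 7 of the 10 was inside a zone, against 32.4% of all protein-coding genes, and the same 7 were within 20 kb of a zone, against 38.5%. The other 3 genes, Rfc3, Lig1 and Wdhd1, were 260.1 kb or more from the nearest zone edge. The nearer end of the 10 genes had a median distance of 31.7 kb to the middle of the nearest breakpoint bin, where all protein-coding genes had 129 kb. Among genes in zones alone the members did not stand apart: the 7 had a median of 19.4 kb and all 6664 protein-coding genes in zones had 23 kb. With 1 library and genes as the units, no test was made of these counts.

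**Figure D1:**
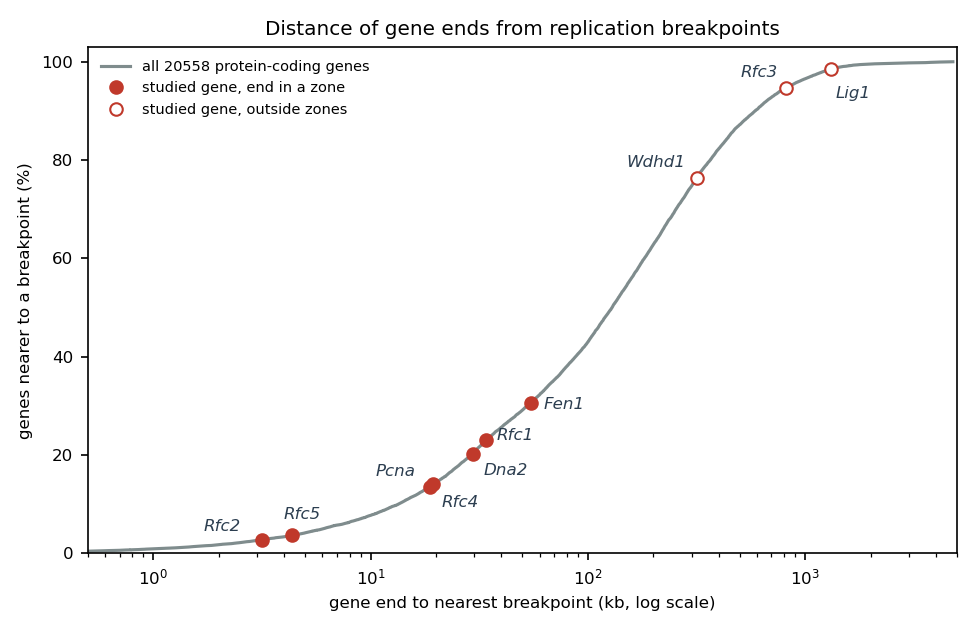
Distance from the nearer end of a gene to the nearest breakpoint (kb, log scale) on the x axis and the percentage of protein-coding genes that are nearer on the y axis; the line is all 20558 genes and the points are the 10 studied genes. Rfc2 and Rfc5 sit at the near end at 3.17 and 4.36 kb, and Wdhd1, Rfc3 and Lig1, the open points, lie beyond 300 kb.

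Pcna, the clamp itself (chromosome 2, 132249286 to 132253180), lay in 1 of the wider zones of the genome. The zone ran from 132143001 to 132314000, with a left arm of 87 kb and a right arm of 83 kb. Its width of 170 kb exceeded that of 93.5% of zones. The 3.9 kb gene lay wholly on the right arm, with its ends 18.8 and 22.7 kb from the breakpoint, in the inner part of the arm. The start of Pcna is its right end, so it is transcribed toward the breakpoint. It sits between Tmem230, 0.227 kb away and the gene nearest to the breakpoint (8.99 kb), and Cds2, a CDP-diacylglycerol synthase gene on the opposite strand whose outermost annotated end is 0.158 kb from Pcna. By the listed start sites this pair was not within 5 kb. The only protein-coding gene with an end on the zone's left arm was the vitamin C transporter gene Slc23a2, 85.2 kb from the breakpoint.

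The loader genes lay on chromosomes 5 and 16. Chromosome 5 carries Rfc1, Rfc5, Rfc2 and Rfc3, in this order, separated by 52, 17.2 and 17 Mb, so they share no zone. It carried 6.06% of all protein-coding genes and 4 of these 10. Of the loader genes 4 were in zones, against 32.4% of all protein-coding genes. Each of the 4 lay in a zone wider than the median. A zone of median width or more held an end of 20.1% of all protein-coding genes, which is most of those in zones.

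Rfc2, a small ATPase subunit (134582690 to 134598328), had the nearest end of all 10 genes, 3.17 kb from a breakpoint, and 2.81% of protein-coding genes were nearer. Its zone, 134571001 to 134702000, was the most lopsided of the 7, with a left arm of 30 kb and a right arm of 100 kb. The right arm is at the upper limit of the list, which 9.56% of zones reached on at least 1 side, so its true length may be greater. Rfc2 took up the inner part of the short left arm, from 18.8 to 3.17 kb left of the breakpoint. The breakpoint itself lay in the next gene, Lat2, an adaptor of immune receptors. The zone also held an end of Eif4h, a translation initiation factor gene, of the LIM kinase gene Limk1 and of Syna, which encodes the placental envelope protein syncytin-A. Rfc2, Lat2, Eif4h and Limk1 are neighbours in the human Williams-Beuren region as well.

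Rfc5, another small subunit (117379145 to 117389023), held the breakpoint of its zone in its body, 4.36 kb from its left end and 5.52 kb from its start. Of all protein-coding genes 4.02% held a breakpoint, and of those up to 10 kb long, as Rfc5 is, 1.14% did. The zone from 117284001 to 117441000 was 156 kb wide, wider than 88.5% of zones, with arms of 99 and 57 kb. To the left of Rfc5 it held Wsb2, 0.544 kb away, Vsig10 and an end of Pebp1, an inhibitor of Raf kinase. To the right it held an end of Ksr2, a 354 kb gene for a scaffold of the same kinase pathway, whose nearer end was 30.5 kb from the breakpoint.

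Rfc4 (chromosome 16, 23113948 to 23127730) lay on the right arm of a zone of 166 kb (23021001 to 23188000, arms of 73 and 93 kb), wider than 92.4% of zones. Its ends were 19.4 and 33.2 kb from the breakpoint. It overlaps the end of Eif4a2, a translation initiation helicase gene on the opposite strand, which was nearer to the breakpoint (13 kb), and the genes run toward each other. The kininogen genes Kng1 and Kng2 had ends on the left arm, and the adiponectin gene Adipoq lay on the right. With 15 other genes of all kinds, small nucleolar RNA genes and pseudogenes included, this was the most crowded of the 7 zones.

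Rfc1, the large subunit (65261852 to 65338617), was the only 1 of the 7 that crossed a zone edge. Its body began 41.1 kb outside the left edge of the zone at 65303001 to 65457000 and reached to 33.9 kb from the breakpoint. The arms measured 69 and 84 kb. The gene is transcribed leftward, away from the breakpoint and out of the zone. The breakpoint lay in Klb, the gene of the FGF co-receptor beta-klotho, followed on the right arm by the ribosomal protein gene Rpl9, the lipoic acid synthase gene Lias, Ugdh and an end of Smim14. The midpoint of Rfc1 lay beyond the end of the left arm, so by midpoints 6 genes were inside. The next breakpoint was 134 kb from that of Rfc1 and 128 kb from that of Rfc2, the shortest such distances among the 7 zones.

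Rfc3 (151642817 to 151651208) was the loader gene outside zones. The nearest zone, 150802001 to 150913000, ended 729.8 kb to its left, and 94.7% of protein-coding genes had an end nearer to a breakpoint. No zone was listed on its right, where the last annotated gene of chromosome 5 ended 49.1 kb away. Between the last zone and that point stood 4 protein-coding genes, Kl, Stard13, Vmn2r18 and Rfc3. Stard13 and Vmn2r18 were the 2 protein-coding genes within 500 kb of Rfc3, measured between midpoints, where the median gene had 15.

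The genes of flap removal, Fen1 and Dna2, both lay near the right edge of a zone. Fen1 (chromosome 19, 10199132 to 10204393), the flap endonuclease, had its ends 54.6 and 59.9 kb right of the breakpoint and its start 3.61 kb from the edge. Its zone, 10079001 to 10208000, was 128 kb wide with nearly equal arms of 65 and 63 kb. The fatty acid desaturase genes Fads2 and Fads1 had ends on the left and right arm, 43 and 38.4 kb from the breakpoint. Tmem258, a subunit gene of the oligosaccharyltransferase, starts head-to-head with Fen1, and the annotated genes share 192 bases. Moving all edges inward by 10 kb put Fen1 outside its zone, the only 1 of the 7 that left.

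Dna2, the nuclease and helicase of long flaps (chromosome 10, 62946983 to 62974188), filled the outer part of the right arm of its zone (62878001 to 62975000). Its start lay 29.5 kb and its end 56.7 kb from the breakpoint, the end 0.812 kb inside the edge, which is less than a bin. At 96 kb, with arms of 39 and 57 kb, the zone was the narrowest of the 7 and the only 1 below the median of all zones. Dna2 follows the mitochondrial carrier gene Slc25a16 at a distance of 0.489 kb on the same strand, and both are transcribed away from the breakpoint, which lay 3.13 kb before Slc25a16. On the left arm the zone held the start of Tet1, the 5-methylcytosine dioxygenase gene, 30 kb from the breakpoint.

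**Figure D2:**
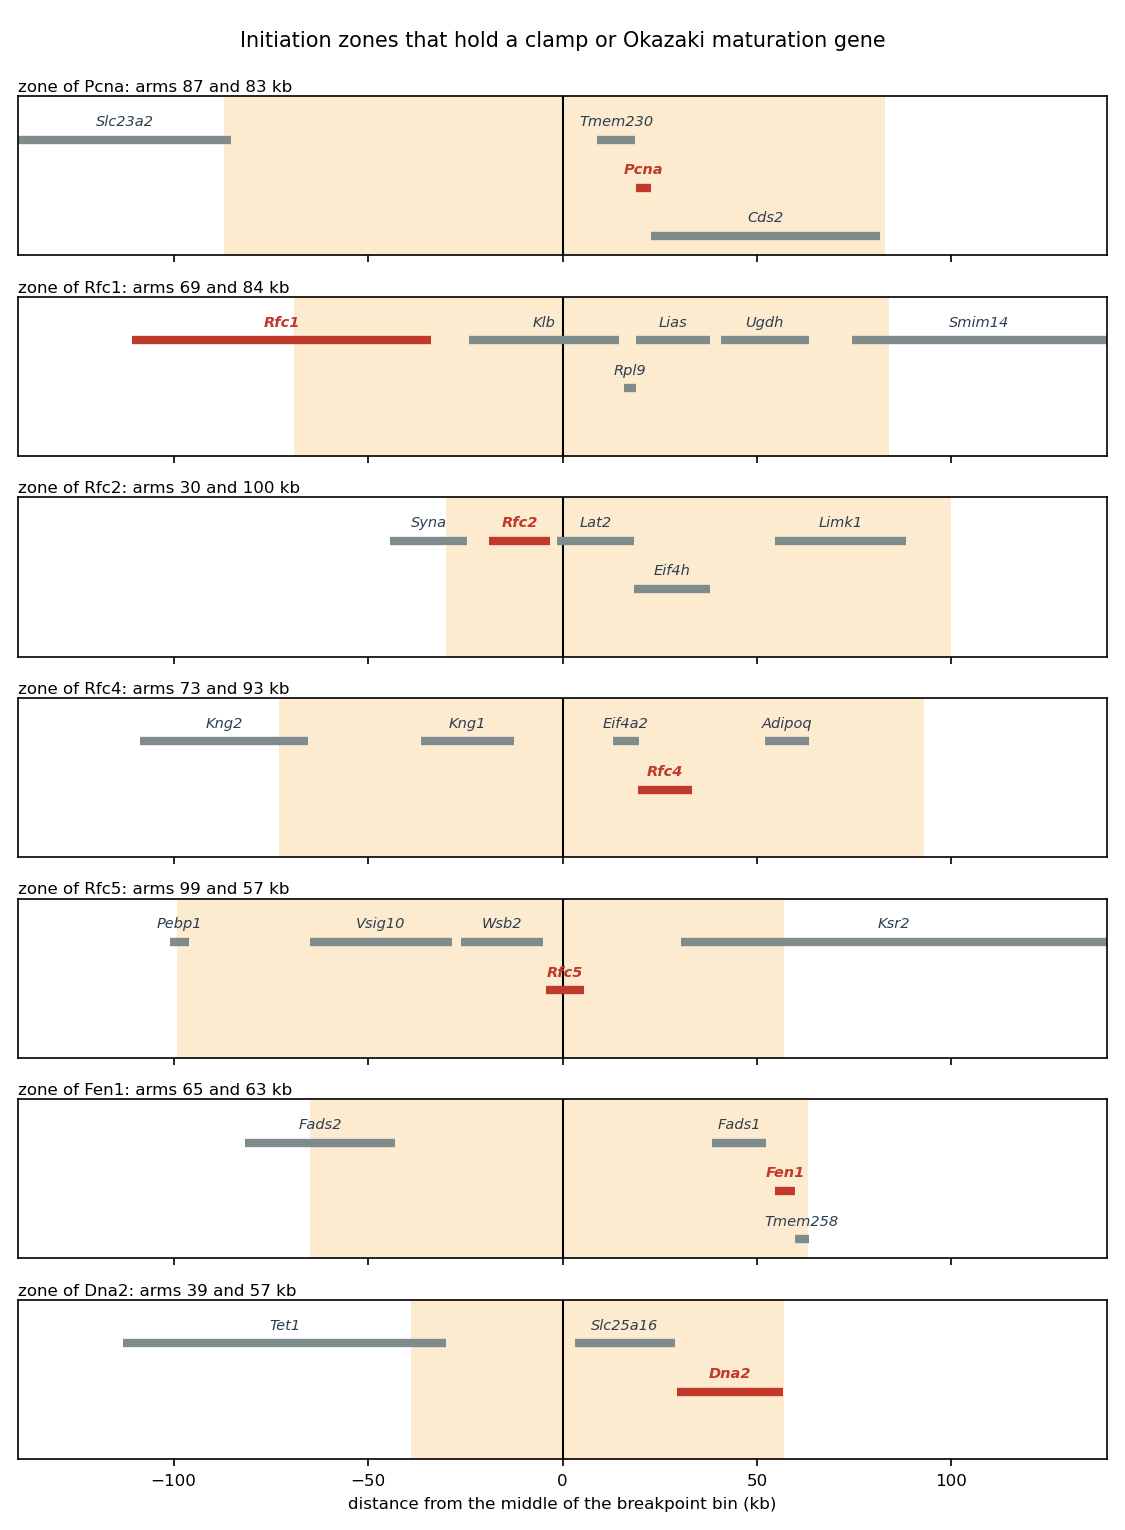
Maps of the 7 zones that hold a studied gene, as distance in kb from the middle of the breakpoint bin (vertical line); shading spans the zone, red bars are the studied genes and grey bars are all other protein-coding genes with an end in the zone. Slc23a2, Smim14 and Ksr2 run past the plotted range. Rfc5 lies across the breakpoint, Rfc2 beside it, and Fen1 and Dna2 reach toward the right edge.

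Lig1, the ligase that joins Okazaki fragments (chromosome 7, 13277175 to 13311426), lay in the longest stretch without a listed zone. The nearest zones ended at 6324000, 6953 kb to its left, and began at 14592001, 1281 kb to its right. Of the 2737 gaps between neighbouring zones, with overlapping zones joined, this gap of 8268 kb was the longest, ahead of gaps of 8079 and 7244 kb, and the median gap was 508 kb. The stretch was not poor in genes: 113 protein-coding genes lay wholly in it, and 27 lay within 500 kb of Lig1. Vomeronasal receptor genes made up 53 of them, with 13 Zfp and 8 olfactory receptor genes. The part of such multigene families in the absence of listed zones was not tested. The immediate neighbours of Lig1 were Zswim9 on the opposite strand, whose start overlaps that of Lig1, Pla2g4c, 0.081 kb after its end, and Vmn1r89, 56.9 kb to the left. Lig3 and Lig4, the other mammalian DNA ligase genes, both had an end in a zone, 68.2 and 36.8 kb from the breakpoint.

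Wdhd1 (chromosome 14, 47240944 to 47276861) was the nearest to a zone of the 3 genes outside, with its nearer end 317.6 kb from a breakpoint and 76.4% of protein-coding genes nearer. The zone on the left, 46726001 to 46863000, was 377.9 kb away and the zone on the right, 47537001 to 47661000, was 260.1 kb away. The gap of 674 kb between them was longer than 60.2% of gaps and held 9 protein-coding genes. Socs4, a suppressor of cytokine signalling, starts 0.059 kb from Wdhd1 on the opposite strand, and Gch1, the first enzyme of tetrahydrobiopterin synthesis, ended 51.5 kb to the left.

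**Figure D3:**
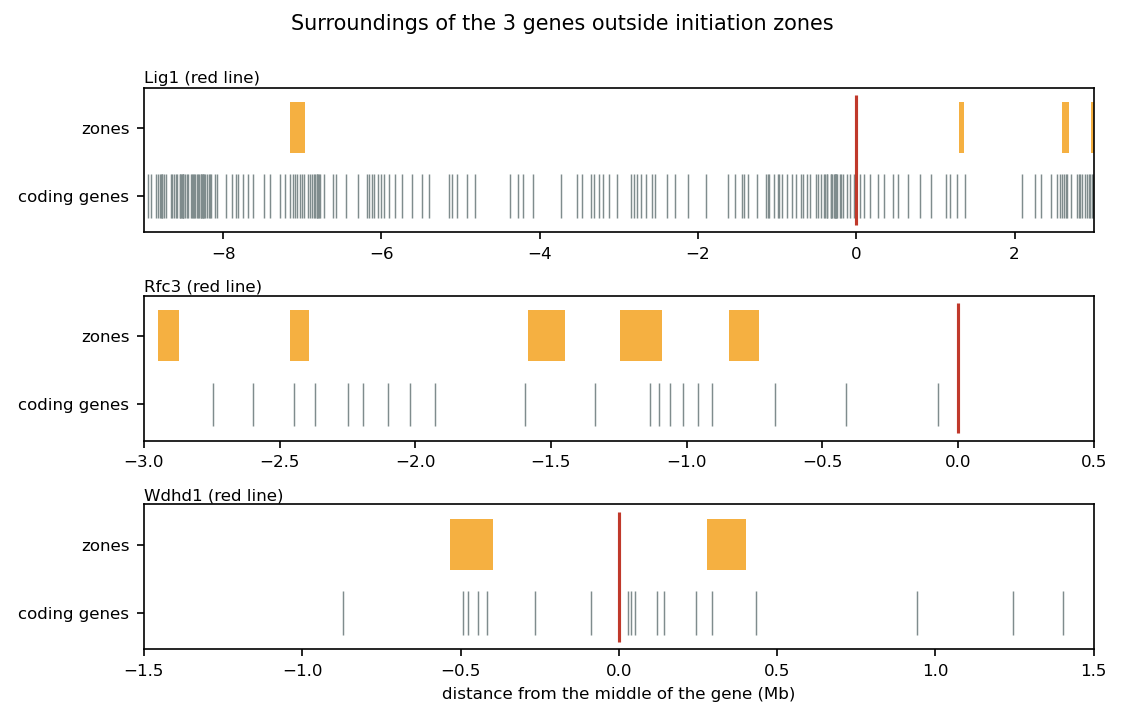
Surroundings of Lig1, Rfc3 and Wdhd1, as distance in Mb from the middle of the gene (red line), with listed zones as orange blocks and the midpoints of other protein-coding genes as grey ticks; the 3 panels have different scales. Lig1 sits in the gap of 8268 kb, Rfc3 beyond the last zone of its chromosome and Wdhd1 between zones 377.9 and 260.1 kb away.

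The 7 zones with a studied gene were wide. Their widths were 96 (Dna2), 128 (Fen1), 130 (Rfc2), 153 (Rfc1), 156 (Rfc5), 166 (Rfc4) and 170 kb (Pcna), with a median of 153 kb where all zones had 112 kb. A wide zone takes in more genes, and counted once for each of the 6664 protein-coding genes in a zone the median width was 124 kb. Above the upper quartile of all zones (138 kb) lay 4 of the 7, against 33.3% of zones counted once per gene. Arms were long at the median: the left ones measured 69 kb and the right ones 83 kb, against 51 and 52 kb in all zones. The left arms of the Rfc2 and Dna2 zones, 30 and 39 kb, were shorter than the median of all zones. Arms were not counted once per gene. The arms differed by 2 kb (Fen1), 4 kb (Pcna), 15 kb (Rfc1), 18 kb (Dna2), 20 kb (Rfc4), 42 kb (Rfc5) and 70 kb (Rfc2), with a median difference of 18 kb against 25 kb for all zones. The right arm was the longer in 4 of the 7, and in 48.9% of all zones.

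**Figure D4:**
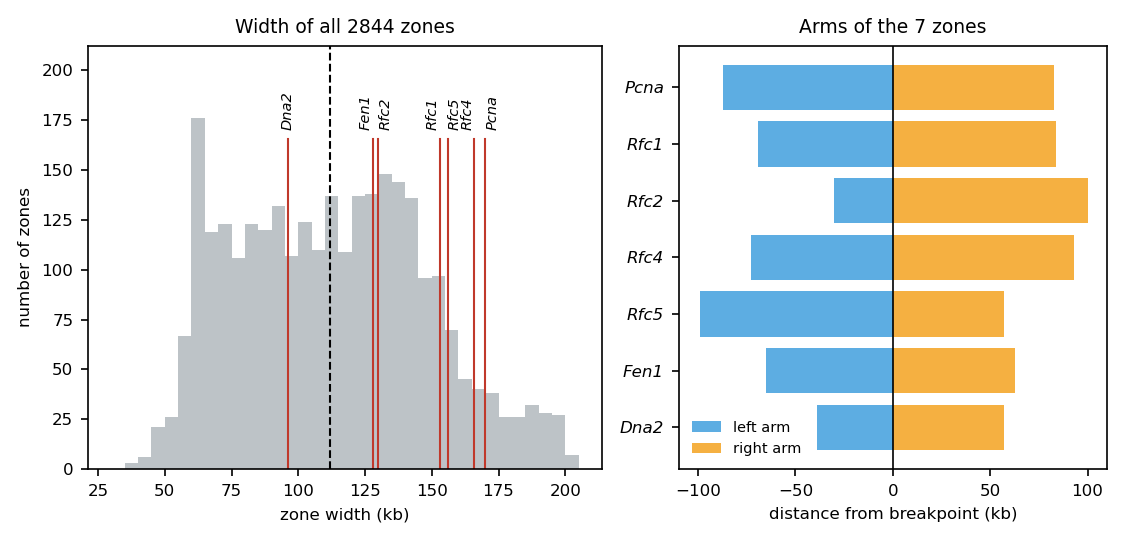
Left, number of zones by width (kb, bins of 5 kb) for all 2844 zones, with their median (dashed, 112 kb) and the widths of the 7 zones with a studied gene (red lines). Right, left and right arm of those 7 zones in kb from the breakpoint. Only the zone of Dna2 lies below the median, and the zone of Rfc2 has the most unequal arms.

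Side and direction of transcription varied among the genes. The midpoint lay right of the breakpoint for 5 of the 7 and left of it for Rfc1 and Rfc2, while 50.9% of all protein-coding genes in zones had theirs on the right. The midpoint of Rfc5 was only 0.584 kb from the breakpoint, within the width of a bin, so its side is not resolved. Forks leave a zone on both sides, so a gene transcribed away from the breakpoint runs with the forks that start there and one transcribed toward it runs against them. Of the 5 genes in zones with a known strand and a breakpoint outside the body, Rfc1 and Dna2 were transcribed away and Pcna, Rfc4 and Fen1 toward. Of 4742 protein-coding genes placed in the same way, 60.1% were transcribed away and 39.9% toward. The list of zones gives no fork direction at single genes, so it was not examined here.

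The genes lay close to their neighbours. Another protein-coding gene was within 1 kb of 7 of the 10, all but Rfc1, Rfc2 and Rfc3, against 32.3% of all protein-coding genes and 38% of those in zones. Of the 9 genes with a listed strand, 3 had a start head-to-head with that of another protein-coding gene within 1 kb, Pcna with Cds2, Fen1 with Tmem258 and Wdhd1 with Socs4, against 10.6% of 16457 genes. Starts here are the outermost annotated ends. By the starts listed in the promoter table the count was also 3, with Lig1 and Zswim9 in place of Pcna and Cds2. The share among all genes in zones was 13.2% and outside them 9.38%. In the 7 zones 25 other protein-coding genes had an end, 2 to 5 in each. Of these 25, 17 were wholly inside, against 57.5% of all protein-coding genes in zones. The median of 4 other genes per zone compares with 1 in all zones that hold any and with 3 when zones are counted once per gene. The breakpoint lay in a protein-coding gene in 3 of the 7 zones (Klb, Lat2 and Rfc5), against 29.2% of all zones.

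Around each gene, 500 kb to either side, the number of other protein-coding genes ranged from 2 for Rfc3 and 6 for Rfc5 to 24 for Fen1 and 27 for Lig1. The median was 15 for the 10 genes and 15 for all protein-coding genes, so these genes as a group did not lie in gene-dense surroundings. Within 1 Mb of the gene midpoint there were 6 breakpoints at Rfc1, 4 at Pcna and Rfc4, 3 at Rfc2, Rfc5, Fen1 and Dna2, 2 at Wdhd1, 1 at Rfc3 and 0 at Lig1. All protein-coding genes had a median of 3. The median length was 14.7 kb for the 10 genes and 17.6 kb for all protein-coding genes. Among genes up to 10 kb long, 3 of 4 of the studied genes were in zones, against 23.8% of all, and among those of 10 to 50 kb 3 of 5, against 34.8%. The 1 studied gene over 50 kb, Rfc1, was in a zone, against 41.4%. The part of gene length was not tested.

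The counts for other genes of the same pathways are given beside the shares over all protein-coding genes. Of the genes of the alternative clamp and of other loaders and unloaders, 4 of 10 were in a zone (40%, against 32.4% of all protein-coding genes) and 6 within 20 kb (60% against 38.5%). Rad9a and Rad1, parts of the checkpoint clamp, and Dscc1 and Atad5, parts of loaders or unloaders of PCNA, lay 29.7, 33.4, 31 and 34.7 kb from a breakpoint by their nearer end, and Chtf18 was farthest, 315 kb from a zone. In a list of 12 further genes 8 were in a zone (66.7% against 32.4%), and the same count was within 20 kb. The list covers nucleases, ligases and RNase H, but it also holds Parp1 and Xrcc1, which are none of these. Both are among the 8. Rnaseh1, which cuts RNA in hybrids with DNA, had an end within a bin of a breakpoint (0.092 kb), Parp1, Gen1 and Rnaseh2b followed at 12.5, 23.4 and 32.6 kb, and the exonuclease gene Exo1 was 673 kb from a zone. Of 14 genes of PCNA partners 6 were in a zone (42.9%, against 32.4% of all protein-coding genes) and 10 within 20 kb (71.4% against 38.5%). Within 5 kb the count was 6, against 34.2% of all. The mismatch repair gene Msh6, the cohesin acetyltransferase gene Esco2, Uhrf1 and Rad18 lay 2.55, 5.53, 18.8 and 19.8 kb from a breakpoint by the nearer end, and the CDK inhibitor gene Cdkn1a was 451 kb from a zone.

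A list of 27 fork genes held those of the polymerases, the helicase and the single-strand binding protein, and also Timeless, Tipin and Clspn. Of the 27, 13 were in a zone (48.1% against 32.4%) and 16 within 20 kb (59.3% against 38.5%). Rpa2 (0.86 kb), Pole2 (4.29 kb), Mcm4 (5.4 kb) and Tipin (8.99 kb) were nearest to a breakpoint, and the primase gene Prim2 was farthest, 1068.2 kb from a zone. Median distances to a breakpoint were 31.7 kb for the 10 clamp, loader and Okazaki genes, 42.8 kb for PCNA partners, 58.2 kb for the further nucleases and ligases, 58.5 kb for the fork genes and 61 kb for the alternative clamps and loaders. All 5 medians were below that of all protein-coding genes, 129 kb. The zones that held these genes had median widths of 154 kb for the further nucleases and ligases, near the 153 kb given above, and of 94.5 to 111 kb for the other 3 lists. The ranges of the lists overlap widely, the differences between them were not tested, and each list has a gene 315 kb or more from a zone.

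**Figure D5:**
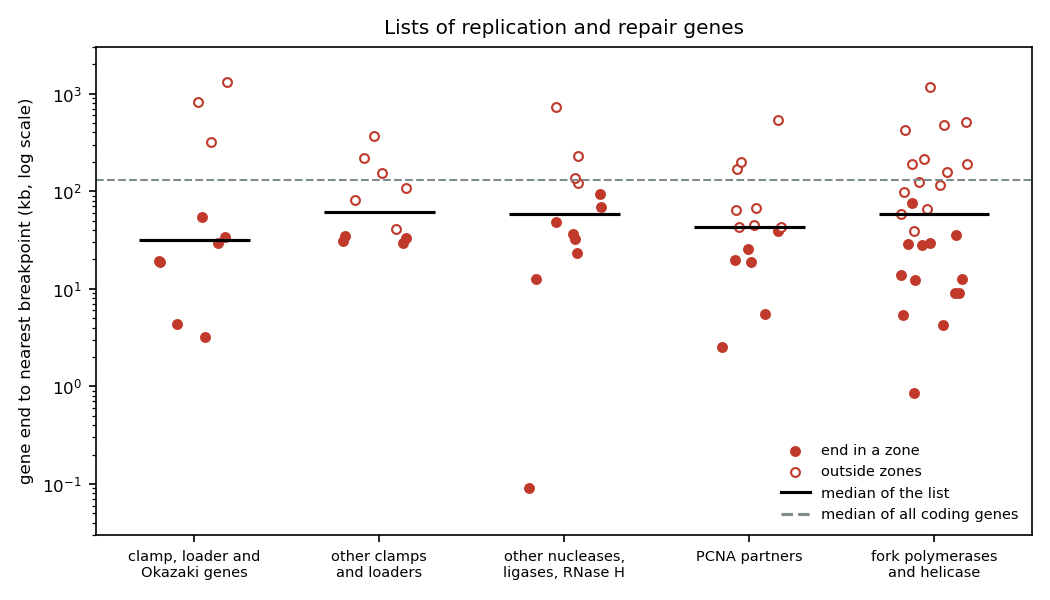
Distance from the nearer gene end to the nearest breakpoint (kb, log scale) for each gene of the 5 lists; filled points have an end in a zone, black bars are medians of the lists and the dashed line is the median of all protein-coding genes (129 kb). The points of the lists overlap, and the sideways position of a point has no meaning.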

How the data were processed

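The authors deposited 1 list of initiation zones, made from the wild-type OK-seq library. Its values are distances in bp between bins of 1 kb, a unit of its own with no score, count or signal, so the depth is unknown. Per the file headers, an entry holds a breakpoint bin, the bins of the minimum and maximum beside it, their distances and the nearest other breakpoint. The submitters' processing notes name the build mm10 and, with no roles, Picard 2.8.2, SAMtools, Bowtie, BWA 0.7.13, Trim Galore 0.4.2 and bcl2fastq. The sources used here describe neither the isolation of Okazaki fragments nor the calling of zones. No arm exceeded 100 kb.

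Gene positions came from a RefSeq table of GRCm38.p6 without 333 genes on scaffolds. Starts and strands came from a RefSeq promoter table, which held 16457 of the 20558 protein-coding genes. A gene was in a zone if either end was. Distances to a breakpoint ran from the nearer gene end to the middle of the bin, also where the gene held the breakpoint. A start was taken as the outermost listed one, and for head-to-head pairs as the outermost annotated end. Python 3.11.15, pandas 2.3.3 and NumPy 2.4.6 were used, and the distance functions were tested on simulated zones.

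The 10 genes and the other lists were chosen with earlier results of these data known. Named were all 10 genes, up to 8 genes in each of their zones and the neighbours of genes outside zones. In each other list, up to 4 genes in zones nearest to a breakpoint and the farthest gene were named. Lig3, Lig4, Xrcc1, Timeless, Clspn, Zswim9, Gm15728, Kl and Stard13 were added after their values were seen. Direction of transcription, head-to-head starts, gaps between zones and neighbours within 1 kb were also added after the data were seen. Pola1, on the X chromosome, was not analysed here.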

Additional observations from a re-analysis of the deposited data

How the results depend on the processing

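Of 41 alternative settings over 12 results, 33 left the count within 1.5 times, or the median within 1 kb, of the value above. Some settings had little room to differ. For example, the 3 genes outside zones were 260.1 kb or more away, beyond the limits of 50 and 100 kb. The number of genes in zones stayed between 5 (central part of the zone, 19.2% of all genes) and 7 (main setting, 32.4%). Limits of 50 and 100 kb kept the count near zones at 7. The share of all genes rose from 38.5% to 45.4% and 55.9%, so the contrast shrank. Counting distance to a breakpoint instead of a zone left 4 genes within 20 kb, where 14.4% of all genes were as near. The median distance to a breakpoint was 50.2 kb from gene midpoints, 36.9 kb from start sites and 44.3 kb when zones narrower than the median were left out. All protein-coding genes had 152, 149 and 323 kb in these settings. Zones that hold the gene midpoint had a median width of 143 kb, against 112 kb for all zones. In the central part of zones a median of 2 other genes was left, against 1 for all zones that hold any there. By start sites, 1 of 6 genes lay left of the breakpoint, against 49.3% of all genes in zones. Of the PCNA partner genes, 6 were within 5 kb of a zone, as were 34.2% of all genes. Each setting counts other points or zones, and the cause was not tested further. The list comes from 1 library of unknown depth, so no replicate could be left out. Positions are limited by bins of 1 kb, and arms by the limit of 100 kb.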
